A study of Mus musculus with 2 samples.

Results

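The genes described here are 4 cytokines, Il6, Osm, Lif and Il10, and 6 cytokine receptor chains, Il6ra, Il6st, Osmr, Il10ra, Il10rb and Il4ra. They were taken as every probe set whose sole gene symbol in the platform annotation was one of these names, which gave 22 probe sets for the 10 genes, out of 45037 probe sets and 18193 named genes. The values come from 1 Affymetrix array of ID8-induced MDSC. These were C57BL/6 femoral bone marrow cells kept for 4 days beneath ID8 mouse ovarian tumour cells (written ID8 in the title and 1D8 in the protocol) in a 24-well transwell plate, in RPMI-1640 with 5% FBS, and labelled CD11b+Gr1+. The title names supernatant as the inducer and the protocol names cells across a membrane, so the exposure is given here as ID8 tumour cells.

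The second array held control marrow cells of the same strain and the same CD11b+Gr1+ label, with no tumour cells named among their labels. Its column in the value table rose in 6.89% of the steps from row to row. Split at its last value into an upper and a lower range, it fell in order within each. It held 0 rises in either range, against 10622 and 11804 in the ID8-induced column split in the same way. Its values were therefore not read by gene, and no change caused by the tumour cells can be given for any of the 10 genes. With 1 array per group there is no replicate error to set beside a signal, and no test was made. The precision of every value is limited by that number.

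IL-6, oncostatin M and LIF belong to one cytokine family. The receptors for these 3 ligands share the signal-transducing chain gp130, encoded by Il6st, and activate mainly STAT3. IL-10 signals through a ligand-binding chain, Il10ra, and a shared chain, Il10rb, again mainly to STAT3, and restrains macrophage and neutrophil activation. IL-4 and IL-13 use Il4ra, with the common gamma chain or Il13ra1 as its partner, and act mainly through STAT6. In tumour-bearing hosts the STAT3 and STAT6 routes are both associated with the expansion and arginase activity of myeloid suppressor cells.

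Signals are MAS5 values on a linear scale, and each is placed by its percentile, the share of all probe sets on the array with a lower signal. A floor was set at the 40th percentile, a signal of 68.8, which by construction 60% of all probe sets reached. As a second yardstick, the 81 probe sets of odorant, vomeronasal and bitter taste receptors, which leukocytes mostly do not express, read from 4.11 to 182 with a median of 44.3. Of these 81, 29.6% reached the floor, so a signal between 68.8 and 182 was also given by genes of that kind. Probe sets differ in how well they hybridise, so a percentile ranks signals and not the transcript amounts of different genes.

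All 10 genes had at least 1 probe set above the floor, where 71.3% of all genes did. At the level of single probe sets 16 of 22 lay above it, beside 60% of all probe sets. Above the brightest chemosensory receptor lay 10 of 22 probe sets, representing 7 of the 10 genes, where 28.6% of all probe sets and 38.6% of all genes lay. The 3 genes that did not exceed it on any probe set were Lif, Il6st and Osmr. The median percentile of the 22 probe sets was 64.1 among all probe sets and 60.4 among those with 1 gene symbol. All 22 have 1 symbol, while the shares of all probe sets also cover those with several or none.

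**Figure D1:**
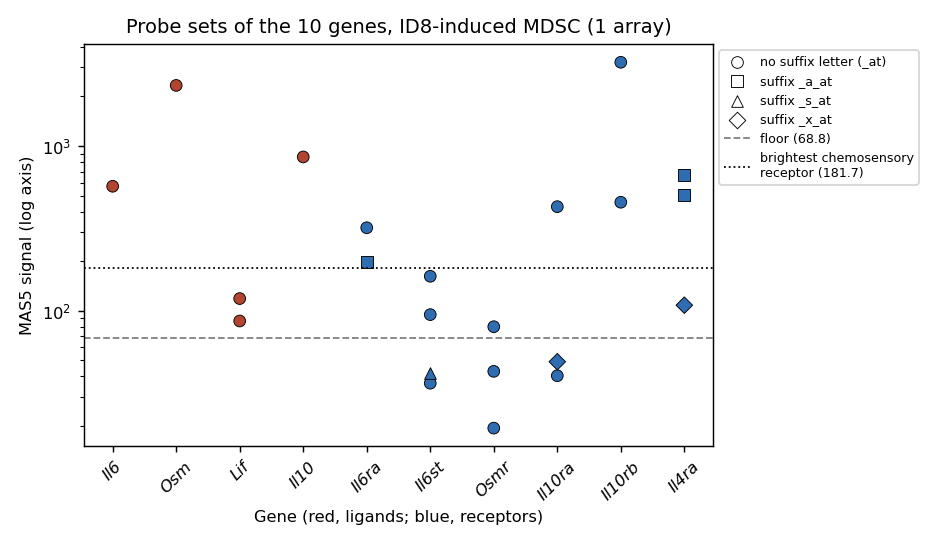
MAS5 signal (log axis) of each of the 22 probe sets by gene in the single ID8-induced MDSC array, red for ligands and blue for receptors, with the marker giving the probe set suffix. The dashed line is the floor (68.8) and the dotted line the brightest chemosensory receptor probe set (181.7). Il6, Osm, Il10, both Il6ra and both Il10rb probe sets lie above the dotted line, while all probe sets of Lif, Il6st and Osmr lie below it.

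Of the ligands, Osm was represented by 1 probe set (1438767_at), which read 2332 (percentile 97.4). Osm encodes oncostatin M, a cytokine made by activated neutrophils and macrophages that acts on stromal, endothelial and liver cells. Il10, the anti-inflammatory cytokine, read 859 on its only probe set (1450330_at, percentile 92.6). Il6, the acute-phase and STAT3-activating cytokine, read 570 on its only probe set (1450297_at, percentile 89.2). All 3 were above every chemosensory receptor, but none has another probe set on the array against which to check it.

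Lif encodes leukaemia inhibitory factor, which is known for keeping stem cells undifferentiated and for roles in tissue repair. Its probe sets 1421207_at and 1450160_at read 119 and 86.8 (percentiles 59.7 and 48.9). They lay close to each other, a ratio of 1.37 where the median over 4695 genes with 2 probe sets was 2.12. Both were above the floor and within the range of the chemosensory receptors, so expression of Lif was not distinguishable from that background on this array.

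RefSeq windows of the 250 bases before the annotated start (GRCm38.p6) were given for 6 of the 10 genes, Il6, Lif, Il6ra, Il6st, Osmr and Il4ra. They are shown for Il6 and Lif, the cytokine genes on either side of the chemosensory yardstick and the only ones of the 6 with a match to any of 6 motifs. The motifs, searched on both strands and chosen with these sequences in view, were AP-1 (TGANTCA), C/EBP (TTNNGCAA), NF-kB (GGANTTTCC), a cyclic AMP response element core, CRE (TGACGT) and 2 STAT forms (TTCNNNGAA, and the same with 1 more base in its spacer). Capitals mark the matches. The Il6 window is chr5:30012864-30013113 on the plus strand and the Lif window chr11:4257318-4257567 on the plus strand.
Il6: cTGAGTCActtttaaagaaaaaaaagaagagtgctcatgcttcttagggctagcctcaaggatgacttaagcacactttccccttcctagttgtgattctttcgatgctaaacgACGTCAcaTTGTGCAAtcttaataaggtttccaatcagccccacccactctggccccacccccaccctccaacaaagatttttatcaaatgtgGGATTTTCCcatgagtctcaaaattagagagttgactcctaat
Lif: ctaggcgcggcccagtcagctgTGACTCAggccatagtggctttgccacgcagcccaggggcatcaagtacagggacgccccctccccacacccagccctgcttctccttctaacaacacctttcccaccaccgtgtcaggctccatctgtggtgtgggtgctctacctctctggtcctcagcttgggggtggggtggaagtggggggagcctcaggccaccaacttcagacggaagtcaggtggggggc
The Il6 window held 4 matches, AP-1 beginning 249 bases before the start, the CRE core at 136, C/EBP at 128 and NF-kB at 43. No 2 of the matches overlapped. The Lif window held AP-1 alone, 228 bases before the start. Over 32851 windows of the same length, AP-1 matched in 6.75%, C/EBP in 9.56%, the CRE core in 6.47% and NF-kB in 1.07%. The STAT forms matched in 7.02% and 5.85% of windows and in 0 of the 6. GC content was 42.8% in the Il6 window and 63.6% in that of Lif. A match is a string of letters and was not measured as a bound site.

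The receptors had 17 probe sets, of which 11 lay above the floor and 7 above the brightest chemosensory receptor. The IL-6 binding chain, Il6ra, read 319 on 1452416_at and 199 on 1422270_a_at (percentiles 82.3 and 73.5). Both lay above the chemosensory yardstick, the lower of them narrowly. Il6st, the chain shared by the receptors for IL-6, oncostatin M and LIF, read 162, 94.9, 42.2 and 36.4 on 1421239_at, 1452843_at, 1460295_s_at and 1437303_at. Of these 4, 2 were above the floor and 0 above the yardstick. The brightest exceeded the dimmest by a ratio of 4.45, near the median of 5.25 among 1092 genes with 4 probe sets. All 4 lay within the range of the chemosensory receptors, so Il6st was not distinguishable from that background on this array. Its brightest probe set did exceed the 95th percentile of those receptors (142).

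Osmr, the oncostatin M chain that pairs with gp130, read 80.2 on 1418675_at, 43.0 on 1459217_at and 19.4 on 1418674_at. A single probe set therefore passed the floor, at percentile 45.9, and the dimmest stood at percentile 6.30. All 3 lay within the range of the chemosensory receptors, so Osmr transcript was not detectable above that background, which is not the same as absence.

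The IL-10 receptor chains differed in how their probe sets agreed. Il10rb, the chain shared with the receptors for IL-22 and the lambda interferons, read 3222 on 1419455_at and 456 on 1429959_at (percentiles 98.2 and 86.9), both above the yardstick. The ratio of 7.06 between them exceeded that of 89.0% of the 4695 genes with 2 probe sets. Il10ra, which binds IL-10, read 429 on 1448731_at (percentile 86.2), but 49.1 on 1437808_x_at and 40.4 on 1456173_at, both below the floor. Its ratio of 10.6 exceeded that of 85.4% of 2366 genes with 3 probe sets.

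Il4ra, the chain common to IL-4 and IL-13 receptors, was above the floor on all 3 probe sets. It read 670 on 1421034_a_at and 502 on 1423996_a_at (percentiles 90.7 and 87.9), and 108 on 1447858_x_at. The first pair lay above the chemosensory yardstick and the third within its range. The suffix _x_at marks probe sets in which some probes can bind other sequences, and _a_at those that cover several transcripts of 1 gene. In the whole array 64.9% of 2441 _x_at and 76.2% of 4426 _a_at probe sets passed the floor.

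The probe sets also differed in the sequence they were annotated to. Of the 22 probe sets, 5 were listed with a RefSeq mRNA record, and all 5 were above the floor. They were the brightest of Il10ra and of Il10rb, the dimmer of Il6ra and the only ones of Il6 and Il10. Of the other 17 probe sets 11 were. Over the array the shares were 67.7% of 6101 probe sets with such a record and 58.8% of 38936 without. The part this plays in the disagreement within Il10ra and Il10rb was not tested.

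Of 20 other ligands and receptors measured in these families, 12 passed the floor and 6 exceeded the yardstick, beside 71.3% and 38.6% of all genes, so as a group they did not stand out from the array. Of 5 other IL-6 family ligands measured (of 9 listed), 3 passed the floor. Ebi3, the subunit that pairs with p28 to form IL-27, read 3766, Ctf1 131 and Clcf1 94.3, while Il31 and Il11 were below the floor at 58.2 and 54.3. All 4 other family receptors measured passed it, with Il27ra, the IL-27 receptor chain, at 199, Cntfr at 188, Lifr at 79.4 and Il31ra at 78.0. Lifr, the gp130 partner for LIF, had 1 of its 3 probe sets above the floor and the dimmest at 21.7. All of its probe sets lay within the range of the chemosensory receptors.

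Among IL-10 relatives, Il20 read 75.1 and Il24 51.6, the latter below the floor. Of 5 other family receptors 2 passed. Ifnlr1, which forms the lambda interferon receptor with Il10rb, read 588, and Il22ra2, the soluble IL-22 binding protein, read 102. Il20rb, Il20ra and Il22ra1 were below the floor at 20.5, 33.9 and 47.1. Of the IL-4 and IL-13 genes 2 of 4 passed. Il13ra1, which can pair with Il4ra, read 988 with all 5 of its probe sets above the yardstick and the dimmest at 446. Il13 read 226, and Il13ra2, the decoy receptor, and Il4 were below the floor at 46.0 and 52.2. Il2rg, the common gamma chain, was not analysed here, as it had no probe set of its own.

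Of the shared signalling genes all but Irs1 were above the floor, which 71.3% of all genes reached. All 8 measured JAK kinases and STAT factors passed it and exceeded the chemosensory yardstick on their brightest probe set, with a median percentile of 92.8, beside 61.4 over all genes. Jak1, which works with gp130 and Il10ra, read 3094 (608 on its dimmest probe set), and Stat6, the IL-4 effector, 2859 (1562). Stat3 read 1738 (234) and Jak2 1643 (1356). All 11 signal inhibitors passed, with a median percentile of 93.2, and 8 exceeded the yardstick, where 38.6% of all genes did. Socs5, Socs1 and Socs2 did not, at 167, 120 and 112 on their brightest probe sets. Ptpn1, a phosphatase that acts on JAK kinases, read 3318 (570), and Ptpn6, the phosphatase SHP-1, 2789 (2655). Socs3, the inhibitor that binds gp130, read 2122 (1300), and Ptpn2, another phosphatase of JAK and STAT proteins, 1276 (94.8). Adaptors and sheddases passed in 7 of 8 cases. Adam17, the protease that releases the soluble IL-6 receptor, read 2667 (2187). The adaptor genes Gab2 and Grb2 read 2201 (143) and 1933 (708), the protease gene Adam10 739 (113), and Irs1 lay below the floor at 44.2.

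Genes known to respond to STAT3 passed the floor in 17 of 17 cases, and 14 exceeded the yardstick, with a median percentile of 97.1. Over all genes 71.3% passed the floor and 38.6% exceeded the yardstick, with a median percentile of 61.4. Ccnd1, Myc and Steap4, at 118, 114 and 106, lay within the range of the chemosensory receptors. The transcription factor gene Cebpb read 10975 (8995), the kinase gene Pim1 9211 (3661), the survival gene Mcl1 8663 (3362) and Il1rn, the interleukin 1 receptor antagonist, 8377 (4914). Genes known to respond to STAT6 passed in 14 of 19 cases, and 5 exceeded the yardstick, with a median percentile of 57.7. Beside the 71.3%, 38.6% and 61.4 over all genes, this list did not stand out from the array. Arg1 (arginase 1) read 6587, Chil3 (a chitinase-like protein) 5512, Tgm2 (transglutaminase 2) 5036 with 22.9 on its dimmest probe set, and Cish 944. Mrc1, Clec10a and Alox15, markers of IL-4-exposed macrophages, lay below the floor at 35.1, 40.2 and 41.8, as did Mgl2 at 44.8 and Ccl24 at 56.0. Cish and Socs1 stand in the inhibitor list as well, and so does Socs3 from the STAT3 list. These genes respond to other signals too, and both lists were drawn up with earlier results of this array known.

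**Figure D2:**
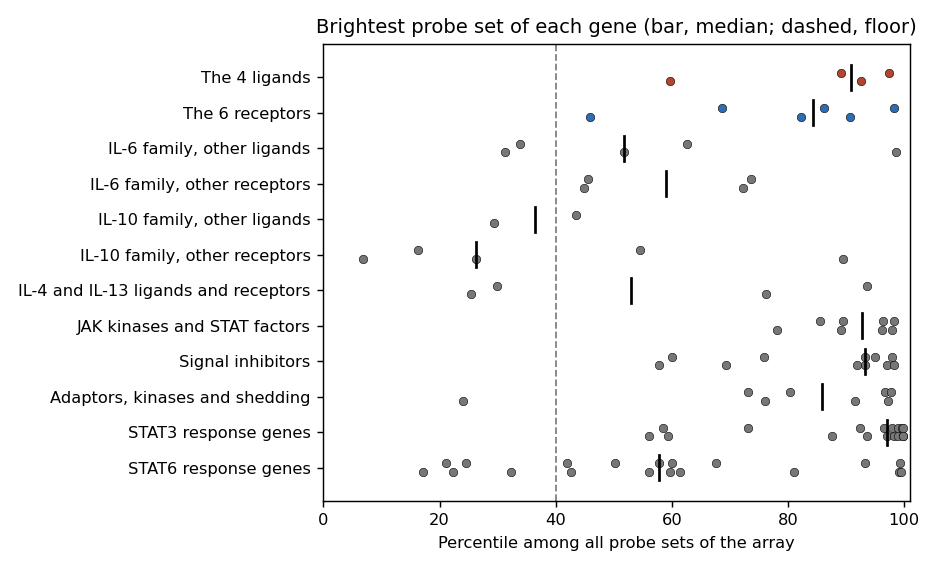
Percentile, among all probe sets of the array, of the brightest probe set of each gene, for the 4 ligands (red), the 6 receptors (blue) and the other genes of the pathways (grey), with 1 point per gene, a bar at each median and a dashed line at the floor. JAK and STAT genes, inhibitors and STAT3 response genes lie toward the right, while relatives of the ligands and receptors and the STAT6 response genes spread on both sides of the floor.

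Several of the 10 genes have relatives next to them on the chromosome, in the gene order of RefSeq (GRCm38.p6, protein-coding genes). Osm and Lif are adjacent, and their brightest probe sets read 2332 and 119. Osmr and Lifr are adjacent as well, at 80.2 and 79.4, and the next gene on the Osmr side, Rictor, read 746. Il6st lies beside Il31ra, at 162 and 78.0. On the side of Il10 toward its relatives, Il20 read 75.1 and Il24 51.6, while Il10 itself read 859, and Il19, between Il20 and Il10, was not analysed here. On the other side Mapkapk2, a kinase of the p38 pathway, read 5361. Il10rb stands in a row of interferon receptor genes, with Ifnar2 at 4912, Ifnar1 at 1361 and Ifngr2 at 1394, each with every probe set above the yardstick (dimmest 390, 1044 and 496). Il21r beside Il4ra read 83.9.

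**Figure D3:**
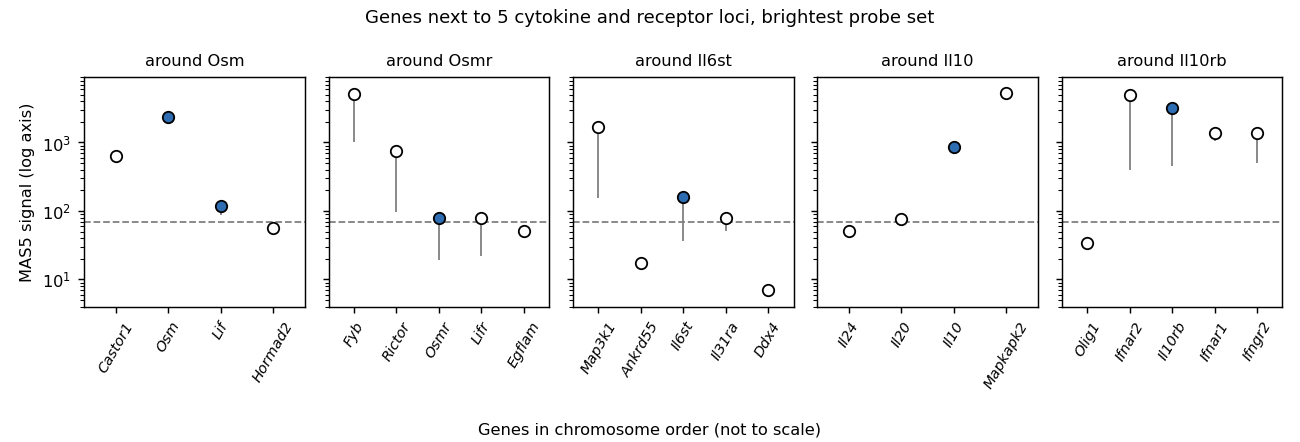
MAS5 signal (log axis) of the brightest probe set of each gene in chromosome order (spacing not to scale) around 5 loci, with filled points for the genes described here, thin lines down to the dimmest probe set and a dashed line at the floor. From Ifnar2 to Ifngr2 every gene around Il10rb reads over the yardstick of 182 on each probe set, and Lif (119), Il20 (75.1), Osmr (80.2) and Lifr (79.4) lie between the floor and that yardstick.

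Markers of the labelled cell type were bright, with all 9 measured markers of CD11b+Gr1+ cells between 2375 (Itgam, which encodes CD11b) and 24857 (S100a9). Ly6g, Ly6c1 and Ly6c2, which encode the Gr1 antigens, were not analysed here, as they had no probe sets of their own. Macrophage markers passed the floor in 4 of 9 cases and the yardstick in 3. Cd68 read 3597, Adgre1 (F4/80) 1443, C1qb 365 with 18.7 on its dimmest probe set, and Marco 173, while Mertk, C1qc, Mrc1, C1qa and Cd163 were below the floor, at 17.1 to 48.6. For the 7 lists of other cell types 25 of 44 markers passed the floor and 8 exceeded the yardstick, beside 71.3% and 38.6% of all genes. The lists differed. All 5 B lineage and 5 of 7 T and NK cell markers passed the floor, but only 1 and 2 of them exceeded the yardstick. Cd4, Cd8a, Ms4a1, Ebf1 and Pax5 each also had a probe set below the floor, the dimmest at 66.0, 21.2, 19.2, 66.6 and 40.2. The floor was passed by 2 of 5 erythroid, 3 of 6 mast cell and basophil and 2 of 5 eosinophil markers, with 1 of each list above the yardstick. The lowest and highest signals were 62.3 and 277 (Cd4) for T and NK cells and 78.1 and 261 (Cd79b) for the B lineage. They were 31.2 and 1693 (Alas2, percentile 96.3) for erythroid cells, and 20.2 and 254 (Mcpt8) for mast cells and basophils. They were 17.7 and 445 (Prg2, percentile 86.6) for eosinophils and 37.6 and 270 for fibroblast and stromal cells. For epithelial and mesothelial cells, the kind of ID8, they were 21.6 and 239. Below the floor lay Ncr1 and Cd3g of the T and NK list and Klf1, Hba-a1 and Car1 of the erythroid list. Also below it were Cpa3, Mcpt4 and Fcer1a of the mast cell and basophil list and Il5ra, Siglecf and Ccr3 of the eosinophil list. Among erythroid, mast cell, basophil and eosinophil markers, Epor (161), Kit (103), Ms4a2 (81.0) and Epx (72.5) lay between the floor and the yardstick. Il6, Lif and Osmr can also be made by stromal and epithelial cells. Of the epithelial and mesothelial markers 6 of 9 passed the floor, Cldn3 at 239, Upk1b at 170, Epcam at 159, Krt8 at 107, Krt18 at 94.9 and Msln at 87.8, with 1 of them above the yardstick, and Cdh1, Krt19 and Wt1 did not reach the floor. Of the fibroblast and stromal markers 2 of 7 passed, Col1a1 at 270 and Col1a2 at 96.0, with 1 above the yardstick, and Col3a1, Dcn, Pdgfrb, Pdgfra and Lum lay below the floor. The part of such cells in the Il6 signal was not tested. In a mixed RNA sample, fewer cells with a transcript and less of it per cell cannot be told apart.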

How the data were processed

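RNA of 2 mouse samples was hybridised to 1 array each, from 6 ug of total RNA per the labels' protocols. The authors deposited intensity values made with MAS5, per the submitters' processing notes, in linear units for each probe set. Version and scaling target were not given in the sources used here, nor were detection calls. The ID8-induced column was used as deposited. Names came from the platform annotation at GEO (34945 probe sets with 1 symbol, 932 with several, 9160 with none), and only singly named probe sets entered. All 10 genes matched RefSeq by Entrez ID.

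The brightest probe set stood for a gene, which was below the floor only if every probe set was. The written plan names all 10 genes, and of each pathway list up to 4 of the brightest genes and up to 3 below the floor. Further genes were named after their values were seen. The genes and lists were chosen with earlier results of these data known. The chemosensory receptor yardstick (symbols beginning Olfr, Vmn1r, Vmn2r or Tas2r), neighbours and motifs were chosen after the data were seen. The alternatives tried were a floor at the 20th or 60th percentile or at 2 chemosensory levels, probe sets without a suffix letter, the mean log2 signal of each gene, and percentiles among singly named probe sets. The percentile, the floor and the count of rises from row to row were tested on simulated data, and the other steps were not. Software was numpy 2.4.6, pandas 2.3.3 and matplotlib 3.10.9 under Python 3.11.15.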

Additional observations from a re-analysis of the deposited data

Results flagged for a closer look

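In the control array of bone marrow cells the highest signal was 26083.9, which stood in row 1, and the median was 92.3. The column is listed because it was measured and is used for no gene. Of its steps from row to row 6.89% were rises, where the ID8-induced array had 49.9%. How the order arose was not tested.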

How the results depend on the processing

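All 10 genes passed the floor as reported, so their count could not rise, and it stayed 10 with the floor at the 20th percentile. It fell to 8 at the 60th percentile and at the 95th percentile of chemosensory receptors, and to 7 at the brightest of them. With the mean log2 signal it was 9, as with probe sets without a suffix letter. A change of over 1.5 times was counted as a move, which none of these reached. The count of 16 probe sets moved only with the floor at the brightest chemosensory receptor, where 10 remained above it. The median percentile of 64.1 moved by less than 10 points among singly named probe sets, where no probe set shifted by more than 3.87. Of 19 recomputed gene signals 5 moved by over 1.5 times, all with the mean log2 signal over probe sets, Il6st to 69.7, Osmr to 40.6 (below the floor), Il10ra to 94.8, Il10rb to 1212 and Il4ra to 332. Il4ra has no probe set without a suffix letter. Over the 10 pathway lists, counts above the floor moved as follows, each from the count in the report. With the floor at the 20th percentile they were 5 for other IL-6 family ligands, 2 for other IL-10 family ligands and 4 for IL-4 and IL-13 genes. At the 60th percentile they were 2 for other IL-6 family receptors, 0 for other IL-10 family ligands, 1 for other IL-10 family receptors and 8 for STAT6 response genes. At the 95th percentile of chemosensory receptors (142) they were 1, 2, 0 and 1 for other IL-6 family ligands and receptors and other IL-10 family ligands and receptors, and 6 for STAT6 response genes. At the brightest of them (182) the same lists gave 1, 2, 0, 1 and 5. With the mean log2 signal, other IL-6 family receptors gave 2, and with suffix-free probe sets JAK and STAT genes gave 5, since fewer genes have one. The chemosensory floors were chosen after the data were seen. No paired analysis was possible because each group has 1 array and the control column is not tied to probe sets. A single array sets no limit on culture-to-culture spread.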
